A study of Mus musculus with 8 samples.

Results

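Genes for 10 paired inhibitory and activating myeloid receptors were followed in sorted spleen neutrophils of WT and Cxcr2-/- mice, out of 55414 genes in the count tables. They were chosen by family, as the genes whose Ensembl identifier carries 1 of 10 symbols of the Cd300, Pilr, Sirp, Lilr and Siglec families in GENCODE M21. By their known wiring, 7 members are inhibitory (Cd300a, Cd300lf, Pilra, Sirpa, Lilrb4a, Pirb and Siglece) and 3 are activating (Cd300lb, Cd300ld and Pilrb1). All 10 passed the filter on low counts, with at least 2835 counts per library. In Cxcr2-/- neutrophils, 5 of the 10 were lower and 0 were higher with an adjusted p under 0.05, where 21% of all genes tested were lower and 23.7% higher. The 3 activating members were all among the 5, with 2 of the 7 inhibitory ones, Cd300a and Lilrb4a.

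Paired receptors are sets of related membrane proteins with similar outer parts and opposite signals. The inhibitory members carry ITIM motifs in long cytoplasmic tails, which recruit the phosphatases SHP-1 (Ptpn6), SHP-2 (Ptpn11) and SHIP1 (Inpp5d) once Src family kinases have phosphorylated them. The activating members have short tails and couple through a charged residue in the membrane to adaptors with ITAM motifs, DAP12 (Tyrobp) or the Fc receptor gamma chain (Fcer1g), which recruit the kinase Syk. Neutrophils carry many of them, and they set thresholds for degranulation, adhesion and the oxidative burst.

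Spleens of 4 WT and 4 Cxcr2-/- animals gave the neutrophils, all FVB, 10 weeks old and kept in SOPF housing, with 1 RNA library per mouse. Cxcr2, the receptor through which CXC chemokines draw neutrophils out of bone marrow, was missing from every cell of the mutant mice, so that effects within the neutrophil and effects of the surrounding animal cannot be told apart. Cells were enriched by CD11b and then sorted as CD45+ CD11b+ Ly6G+ F4/80-, a gate that holds both mature and less mature neutrophils. Ribosomal RNA was depleted before directional libraries were made, and counts are therefore also fed by RNA without a poly(A) tail.

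The libraries held 34220182 to 46233555 counts on genes, with overlapping ranges of depth between the genotypes. Their composition differed. The 10 genes with the most counts in each library held 9.45% to 11.6% of counts in WT and 17.0% to 19.2% in Cxcr2-/- libraries. Mitochondrial genes held 1.01% to 1.29% and 1.28% to 3.29%. Cxcr2 itself averaged 1956 ± 221 CPM over the WT mice and 17.1 ± 3.46 CPM over the mutant mice (mean ± SD, n = 4 each), in the direction of every label. Levels are given as CPM, counts scaled by TMM to a common library size. Neutrophil markers summed to 37195 to 51612 CPM in WT and to 70316 to 84042 CPM in Cxcr2-/- libraries, and all 10 markers were present in all 8 libraries. The sums were carried by S100a8 and S100a9. By edgeR's quasi-likelihood test 6 of the 10 were higher and 3 were lower, Csf3r by 1.06 and Ptprc by 0.77 on the log2 scale besides Cxcr2. All 14 markers of neutrophil precursors (Elane, Mpo, Ltf, Camp, Ngp and others) were higher in Cxcr2-/- cells by edgeR's quasi-likelihood test, with sums of 22286 to 27042 CPM against 52413 to 74875 CPM. Most of these sums came from Ltf, Ngp and Camp. Ltf averaged 8700 CPM in WT and 21059 CPM in mutant mice, against 1.22 and 43.8 CPM for Elane and 2.81 and 66.5 CPM for Mpo. Of 7 monocyte markers 5 were higher and 1, Csf1r, was lower, and their sums were 676 to 816 CPM in WT and 875 to 1137 CPM in Cxcr2-/- libraries, highest in replicates 3 and 4. Of 8 B cell markers 6 were lower, with sums of 45.8 to 96.7 CPM against 19.9 to 48.0 CPM. The 8 macrophage markers, 1 lower and 1 higher, summed to 31.1 to 95.9 CPM and 17.6 to 40.2 CPM, and the 6 dendritic cell markers, 2 of them lower, to 11.2 to 35.5 CPM and 6.61 to 11.2 CPM, with Siglech near 0. T and NK cell markers showed 0 changes among 5 tested, with sums of 84.5 to 113 CPM and 90.1 to 138 CPM that were nearly all Cd3d. Eosinophil and basophil markers (3 higher and 2 lower) summed to 48.8 to 69.5 CPM and 38.2 to 64.6 CPM, and Mcpt8 was near 0. Red cell and platelet markers stayed at or under 13.8 CPM in sum, with Pf4 near 0. The share that these cells or a shift in maturity had in the results below was not tested. In such bulk samples, fewer cells that express a receptor and less receptor RNA per cell cannot be told apart.

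Across all 16778 genes tested, 21% were lower and 23.7% were higher in Cxcr2-/- neutrophils with an adjusted p under 0.05 (edgeR quasi-likelihood F test, Benjamini-Hochberg adjusted). Of the members, 5 of 10 were lower and 0 of 10 higher by the same rule. With the added demand of at least a 1.5-fold change, 15.7% of all genes were lower and 15.7% higher, and 4 of the 10 members (Cd300a, Cd300ld, Cd300lb and Lilrb4a) were lower. For 5 members the values of the 4 mutant mice lay entirely below those of the 4 WT mice, against 19.1% of all genes, and for 0 members entirely above, against 22.5% of all genes. Scaled by total counts in place of TMM, 8 members did not overlap, and Sirpa and Pilra then also passed. The median log2 fold change was -0.29 over the members and 0.01 over all genes tested. Cxcr2-/- replicates 3 and 4 held the most monocyte marker, Elane and Mpo RNA. Without these libraries, 4 members were lower and 3 of them by at least 1.5-fold. The member lost was Pilrb1 (edgeR adjusted p = 0.0902), and Lilrb4a then fell short of 1.5-fold.

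**Figure D1:**
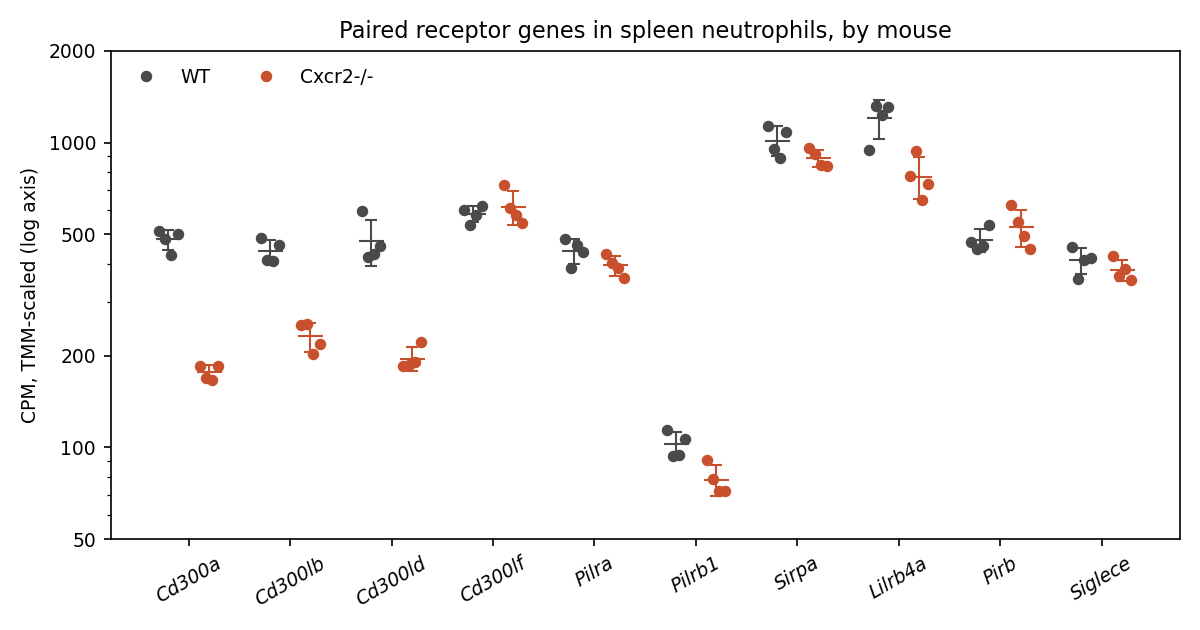
CPM of each of the 10 receptor genes (log axis) in the 4 WT mice (grey) and the 4 Cxcr2-/- mice (orange). Each point is 1 mouse, and bars give the mean and SD. Cd300a, Cd300lb, Cd300ld, Pilrb1 and Lilrb4a do not overlap between the genotypes, and the other members do.

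Of the CD300 receptors, which bind membrane lipids exposed on dying cells and other ligands, 3 of 4 members fell by 1.91-fold to 2.72-fold, and Cd300lf, the fourth, did not pass. Cd300a (ENSMUSG00000034652), an inhibitory receptor that recognizes phosphatidylserine and phosphatidylethanolamine, was at 513, 481, 429 and 501 CPM in the 4 WT mice and at 185, 169, 167 and 185 CPM in the 4 Cxcr2-/- mice. Even the lowest WT mouse was far above the highest mutant mouse, and the mutant mice lay close together. The log2 fold change was -1.45 with a standard error of 0.10, and the edgeR adjusted p was 3.42e-07. Cd300ld (ENSMUSG00000034641), an activating receptor that couples to ITAM adaptors, was at 598, 421, 431 and 456 CPM in WT and at 185, 186, 190 and 221 CPM in Cxcr2-/- mice. WT replicate 1 was high and Cxcr2-/- replicate 4 was the highest of its group, and the groups did not overlap. Its log2 fold change was -1.28 (standard error 0.13, edgeR adjusted p = 5.83e-06).

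Cd300lb (ENSMUSG00000063193), the activating receptor CLM-7 that signals through DAP12, was at 486, 413, 408 and 460 CPM in WT and at 252, 253, 202 and 218 CPM in Cxcr2-/- mice. All mutant values lay below all WT values, with a log2 fold change of -0.93 (standard error 0.11, edgeR adjusted p = 2.23e-05). Cd300lf (ENSMUSG00000047798), the inhibitory receptor CLM-1 that binds ceramide and phosphatidylserine, was at 599, 538, 578 and 617 CPM in WT and at 726, 610, 577 and 543 CPM in Cxcr2-/- mice. The groups overlapped over most of their range, with the highest value in Cxcr2-/- replicate 1. Its log2 fold change of 0.07 (standard error 0.11, edgeR adjusted p = 0.612) took a small negative value under other scalings and without that replicate, and did not pass under any of 18 alternative settings.

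The 4 members are neighbours on chromosome 11 of GRCm38. Cd300a lies on the plus strand from 114890041 to 114904654, and on the minus strand lie Cd300lb from 114922781 to 114934386, Cd300ld from 114982274 to 114989922 and Cd300lf from 115116214 to 115133992. The cluster holds 11 Cd300 genes within 244 kb. Of the 9 that could be tested, 7 were lower and 0 higher in Cxcr2-/- neutrophils with an adjusted p under 0.05 (edgeR's quasi-likelihood test), each without overlap between the groups. Among all genes tested, 21% were lower and 23.7% higher by that test, and 19.1% lay lower without overlap. The 7 include the members Cd300a, Cd300lb and Cd300ld, given above. The other relatives in the cluster were Cd300c, Cd300ld2, Cd300ld3 and Cd300c2, lower by 2.42, 1.77, 1.56 and 1.24 on the log2 scale. Cd300c was at 3.34 to 5.06 CPM in WT and 0.498 to 1.25 CPM in Cxcr2-/- mice, and Cd300ld2 at 49.7 to 56.1 CPM against 14.0 to 16.7 CPM. Cd300c2, an activating receptor that works with DAP12, was at 119 to 138 CPM against 48.8 to 63.0 CPM. Cd300ld3, at 5.21 to 6.28 CPM against 1.58 to 2.31 CPM, shares 80.9% of its 100-base stretches with transcripts of other genes and is uncertain. Cd300ld4 and Cd300ld5 had 0 counts in every library. Cd300ld5 holds 80.9% of the 100-base stretches of Cd300ld3 and 16.2% of those of Cd300ld2. HTSeq listed 8.23% to 11.2% in WT and 10.4% to 13.3% in Cxcr2-/- libraries as aligned to more than 1 place. By its default such pairs are counted on no gene. Which genes they came from was not tested, so 0 counts do not show that Cd300ld4 and Cd300ld5 are silent. Cd300e, at 2.78 to 5.96 CPM in WT and 3.31 to 11.3 CPM in Cxcr2-/- mice, did not pass (log2 fold change 0.65, edgeR adjusted p = 0.159), and neither did Cd300lf, which begins 212 kb beyond the end of Cd300a.

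**Figure D2:**
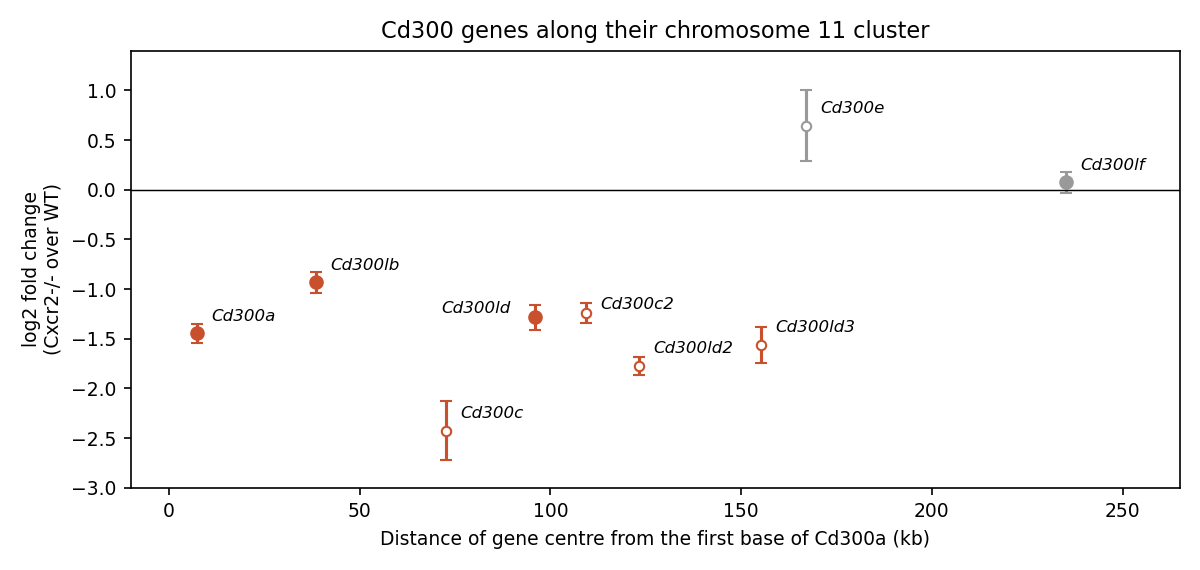
Log2 fold change (Cxcr2-/- over WT, bars give the standard error) of the 9 tested Cd300 genes against the distance of each gene's centre from the first base of Cd300a, in kb. Filled points are the 4 members, and orange marks an adjusted p under 0.05. The 7 genes from Cd300a to Cd300ld3 lie between -2.42 and -0.93, and Cd300e and Cd300lf lie at 0.65 and 0.07.

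Summed over the cluster, Cd300 RNA amounted to 2179 ± 174 CPM over the WT mice and 1298 ± 86.0 CPM over the mutant mice. Of the counts of the cluster, Cd300lf took 25.0%, 26.3%, 28.4% and 27.6% in the WT mice and 51.1%, 47.3%, 47.2% and 43.2% in the mutant mice. Cd300a took 22.1 ± 1.14% in WT and 13.6 ± 0.766% in mutant mice, and Cd300ld 21.8 ± 2.14% and 15.2 ± 1.92%. Cd300lb held 20.3 ± 0.217% and 17.8 ± 1.31%. These shares are not corrected for gene length, so they compare mice and do not rank the genes by abundance. Cd300lf itself did not pass (log2 fold change 0.07), and its larger share follows from the lower counts of the other genes. Cd300lf is also the only one of the 10 members that lies whole inside a gene of the opposite strand without touching its exons. That gene, Rab37, a small GTPase of vesicle traffic that was picked after its values were seen, was at 23.5 to 27.2 CPM in WT and 28.0 to 46.01 CPM in Cxcr2-/- mice (log2 fold change 0.52, standard error 0.14, edgeR adjusted p = 0.00705). The strand setting of the counting is not given in the sources used here, and whether unspliced Rab37 RNA adds to the counts of Cd300lf was not tested.

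The sequences before the start sites of the 4 Cd300 members are shown because 3 of these genes fell together while Cd300lf did not. Each reads 5′ to 3′ on the gene's own strand toward the RefSeq start site of GRCm38.p6, without bases inside the gene in GENCODE M21. Capitals mark matches to a C/EBP motif (TTGCNNAA) or a PU.1 motif (GAGGAA), searched on both strands.
Cd300a, chr11:114889791-114890040: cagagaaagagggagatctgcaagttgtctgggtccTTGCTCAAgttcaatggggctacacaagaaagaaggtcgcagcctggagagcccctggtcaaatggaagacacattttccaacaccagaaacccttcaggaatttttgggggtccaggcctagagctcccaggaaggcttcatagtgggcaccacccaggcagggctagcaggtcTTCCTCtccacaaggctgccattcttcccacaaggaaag
Cd300lb, chr11:114934387-114934621: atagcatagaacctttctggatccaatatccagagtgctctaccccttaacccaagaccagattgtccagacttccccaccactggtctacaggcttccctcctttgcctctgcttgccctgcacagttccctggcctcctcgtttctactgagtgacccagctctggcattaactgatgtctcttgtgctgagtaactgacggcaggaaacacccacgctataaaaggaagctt
Cd300ld, chr11:114989923-114990136: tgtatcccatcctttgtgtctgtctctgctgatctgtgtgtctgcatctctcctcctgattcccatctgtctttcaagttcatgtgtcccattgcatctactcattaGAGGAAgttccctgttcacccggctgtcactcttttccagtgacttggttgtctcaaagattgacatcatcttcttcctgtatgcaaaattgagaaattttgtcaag
Cd300lf, chr11:115133993-115134242: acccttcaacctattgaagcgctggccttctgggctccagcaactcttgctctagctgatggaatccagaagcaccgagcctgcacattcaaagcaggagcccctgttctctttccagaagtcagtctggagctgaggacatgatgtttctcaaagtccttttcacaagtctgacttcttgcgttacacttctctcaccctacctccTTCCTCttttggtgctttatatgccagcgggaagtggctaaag
In these windows Cd300a had a C/EBP match that begins 214 bases before the start site and a PU.1 match at 39 bases. Cd300lf had a PU.1 match at 43 bases, Cd300ld had a PU.1 match at 143 bases, and Cd300lb had none of the motifs. Over 32841 RefSeq windows of 250 bases, 9.57% held the C/EBP letters and 23.3% the PU.1 letters. An AP-1 motif (TGANTCA), held by 6.75% of windows, was not found in any of the 8 member windows available. A match of letters does not show that a factor binds.

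The Pilr pair sits on chromosome 5, both genes on the minus strand, with Pilra from 137821952 to 137836281 and Pilrb1 from 137852147 to 137858106. Pilra (ENSMUSG00000046245), the inhibitory receptor for sialylated O-glycoproteins that restrains neutrophil adhesion, was at 483, 387, 461 and 437 CPM in WT and at 432, 402, 389 and 359 CPM in Cxcr2-/- mice. The groups overlapped, and the log2 fold change of -0.16 did not pass (standard error 0.10, edgeR adjusted p = 0.225). Pilrb1 (ENSMUSG00000066684), its DAP12-coupled activating partner, was at 114, 94.0, 94.6 and 107 CPM in WT and at 91.2, 78.6, 72.1 and 71.8 CPM in Cxcr2-/- mice. All 4 mutant mice lay below the lowest WT mouse, although the gap was narrow, with a log2 fold change of -0.39 (standard error 0.10, edgeR adjusted p = 0.00934). A second relative, Pilrb2, was at 123 to 151 CPM in WT and 99.1 to 146 CPM in mutant mice and did not pass (log2 fold change -0.19, edgeR adjusted p = 0.228). Zcwpw1, on the other strand, covers 15.2% of the exon bases of Pilra.

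The start sites of Pilra and Pilrb1 lie behind closely related sequence, shown here because the longest run of identical bases in any pair of the 8 member windows was theirs, 86 bases, and the next longest was 11 bases. The run begins 103 bases before the Pilra start site and 157 bases before that of Pilrb1.
Pilra, chr5:137836282-137836528: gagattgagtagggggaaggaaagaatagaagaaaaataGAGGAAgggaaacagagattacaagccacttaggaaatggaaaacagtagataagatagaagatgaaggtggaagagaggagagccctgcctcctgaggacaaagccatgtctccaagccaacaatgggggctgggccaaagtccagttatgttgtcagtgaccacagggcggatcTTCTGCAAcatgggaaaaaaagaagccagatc
Pilrb1, chr5:137858107-137858299: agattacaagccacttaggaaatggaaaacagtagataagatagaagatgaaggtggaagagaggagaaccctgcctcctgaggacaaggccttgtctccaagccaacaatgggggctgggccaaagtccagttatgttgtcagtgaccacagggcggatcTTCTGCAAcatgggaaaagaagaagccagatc
Capitals mark the same motifs as above. The C/EBP match, in the same shared run in both windows, begins 35 bases before the start site of Pilra and 89 bases before that of Pilrb1, and Pilra alone has a PU.1 match, at 211 bases, in a stretch that the Pilrb1 window does not reach.

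Sirpa (ENSMUSG00000037902), on chromosome 2 from 129592835 to 129632228 on the plus strand, encodes the inhibitory receptor for CD47 that restrains phagocytosis. It was at 1135, 952, 887 and 1085 CPM in WT and at 957, 920, 846 and 839 CPM in Cxcr2-/- mice. The mutant mice lay in the lower part of the WT range, with overlap, and the log2 fold change of -0.19 did not pass (standard error 0.11, edgeR adjusted p = 0.185). Its relatives Sirpb1a, Sirpb1b and Sirpb1c, which signal through DAP12, were lower by 0.75, 0.77 and 0.62 on the log2 scale (edgeR adjusted p = 9.83e-04, 0.00303 and 0.00106). They share 23.0% to 39.3% of their 100-base stretches with other genes, mostly with each other, so that the counts of each single gene are uncertain. Sirpb1a, the highest of the 3, was at 105 to 139 CPM in WT and 55.9 to 91.5 CPM in mutant mice.

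Lilrb4a (ENSMUSG00000112148), on chromosome 10 from 51490956 to 51496611 on the plus strand, encodes the inhibitory receptor gp49B. It was at 945, 1317, 1233 and 1306 CPM in WT and at 775, 938, 649 and 733 CPM in Cxcr2-/- mice. WT replicate 1 was the lowest of its group and lay just above Cxcr2-/- replicate 2, the highest mutant mouse. Its log2 fold change was -0.63 (standard error 0.14, edgeR adjusted p = 0.00282). Lilr4b (gp49A), a close relative without ITIM motifs, was at 2032 to 2737 CPM in WT and 1473 to 1740 CPM in mutant mice and was lower by 0.69 on the log2 scale (edgeR adjusted p = 6.57e-04). In GENCODE M21, Gm49339 covers 35.3% of the exon bases of Lilrb4a on the same strand. It was at 0 to 0.121 CPM, and by the default of HTSeq pairs that both genes share are counted on neither, if the annotation used for counting holds both.

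Pirb (ENSMUSG00000058818), on chromosome 7 from 3711409 to 3720391 on the minus strand, encodes the inhibitory receptor PIR-B for MHC class I. It was at 472, 449, 458 and 538 CPM in WT and at 622, 547, 492 and 449 CPM in Cxcr2-/- mice, with overlap and a log2 fold change of 0.14 that did not pass (standard error 0.12, edgeR adjusted p = 0.363). Of its 100-base stretches, 20.7% are shared with other genes. Lilra6, a relative that shares 11.9% of its stretches with other genes and was named after its values were seen, was at 357, 338, 315 and 347 CPM in WT and at 236, 228, 187 and 188 CPM in Cxcr2-/- mice. All 4 mutant mice were below all WT mice, with a log2 fold change of -0.69 (standard error 0.10, edgeR adjusted p = 1.75e-04). Siglece (ENSMUSG00000030474), on chromosome 7 from 43651070 to 43660161 on the minus strand, encodes Siglec-E, a sialic-acid-binding inhibitory receptor of mouse neutrophils. It was at 454, 358, 412 and 419 CPM in WT and at 424, 364, 384 and 354 CPM in Cxcr2-/- mice, again with overlap, and did not pass (log2 fold change -0.11, standard error 0.10, edgeR adjusted p = 0.434). The windows before Pirb and Siglece each held 3 PU.1 matches and no C/EBP match. Among Siglec relatives, named after their values were seen, Cd33 was at 1741 to 2037 CPM in WT and 1079 to 1298 CPM in mutant mice. It was lower by 0.68, and Siglecf and Siglecg by 0.57 and 0.33, on the log2 scale (edgeR adjusted p = 2.65e-04, 0.00321 and 0.0235). Siglec1, Cd22 and Mag did not pass.

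Levels can be compared between genes only per length, here as CPM per kb of annotated exon. The lengths were not corrected for bases shared with other genes, which may have drawn no counts. Gm49339 covers 35.3% of the exon bases of Lilrb4a, and 20.7% of the 100-base stretches of Pirb are shared. Both may be underrated, so their places in the orders below, and the shift of Lilrb4a between them, are uncertain. In WT neutrophils the order was Lilrb4a (230 ± 33.4 CPM per kb), Siglece, Sirpa, Cd300ld, Cd300lb, Pilra (143 ± 13.2), Cd300lf, Pirb, Cd300a (102 ± 7.87) and Pilrb1 (52.3 ± 5.05). Neighbours in that order overlapped between mice except at the steps from Pilra to Cd300lf and from Cd300a to Pilrb1. In Cxcr2-/- neutrophils the order was Siglece (206 ± 16.6 CPM per kb), Sirpa, Lilrb4a, Pilra, Cd300lf, Pirb (118 ± 16.7), Cd300lb (79.3 ± 8.66), Cd300ld, Pilrb1 and Cd300a (37.3 ± 2.09), with steps without overlap from Pirb to Cd300lb and from Cd300ld to Pilrb1. The inhibitory members other than Cd300a held the first 6 places there, whereas in WT Cd300ld and Cd300lb stood in the fourth and the fifth place.

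The balance of each pair was then expressed as the count of the inhibitory gene over that of its activating or ITIM-free partner within a library, which does not depend on the scaling between libraries. Counts are not corrected for gene length, so a ratio can be compared between mice but does not say which gene of a pair is the more abundant. For 6 pairs compared, 2 ratios did not overlap between the genotypes, and they moved in opposite directions. Both are Cd300 pairs and follow from the fold changes of their genes given above. The pairs were chosen with earlier results of these data known, and other pairings within the Cd300 cluster were not compared. Cd300a over Cd300lb was 1.06, 1.17, 1.05 and 1.09 in the WT mice and 0.736, 0.668, 0.825 and 0.848 in the Cxcr2-/- mice. The ratio was lower in every mutant mouse than in any WT mouse, with a mean difference of -0.51 on the log2 scale (exact two-sided permutation test p = 0.0286, 0.0857 after Benjamini-Hochberg adjustment over the 6 pairs). Cd300lf over Cd300ld was 1.002, 1.28, 1.34 and 1.35 in WT and 3.92, 3.28, 3.03 and 2.46 in Cxcr2-/- mice. Here the ratio was higher in every mutant mouse, by 1.34 on the log2 scale (exact permutation p = 0.0286, adjusted 0.0857). A p of 0.0286 is the smallest that 4 mice against 4 allow, and 0 of the 6 ratios passed after adjustment.

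Pilra over Pilrb1 ranged from 4.09 to 4.87 in WT and from 4.74 to 5.40 in Cxcr2-/- mice, a difference of 0.23 on the log2 scale with overlap (exact permutation p = 0.0571, adjusted 0.0857). Sirpa over the sum of the 3 Sirpb1 genes ranged from 3.60 to 5.13 and from 5.09 to 8.53, a difference of 0.52, with Cxcr2-/- replicate 4 just under the highest WT mouse (exact permutation p = 0.0571, adjusted 0.0857). Lilrb4a over Lilr4b, at 0.450 to 0.5004 and 0.440 to 0.539, differed by 0.05 on the log2 scale (exact permutation p = 0.543). For that ratio, differences between single mutant and single WT mice ran from -0.18 to 0.26 on the log2 scale. Pirb over Pira2 differed by 0.00 (exact permutation p = 1), but Pira2 had only 138 to 244 counts per library and shares 84.1% of its 100-base stretches with other genes. The more abundant relative Lilra6, given with Pirb above, was not among the pairs compared. Without Cxcr2-/- replicates 3 and 4, 4 ratios did not overlap, with the Sirp ratio (a difference of 0.78) and the Lilr ratio (0.15) added.

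**Figure D3:**
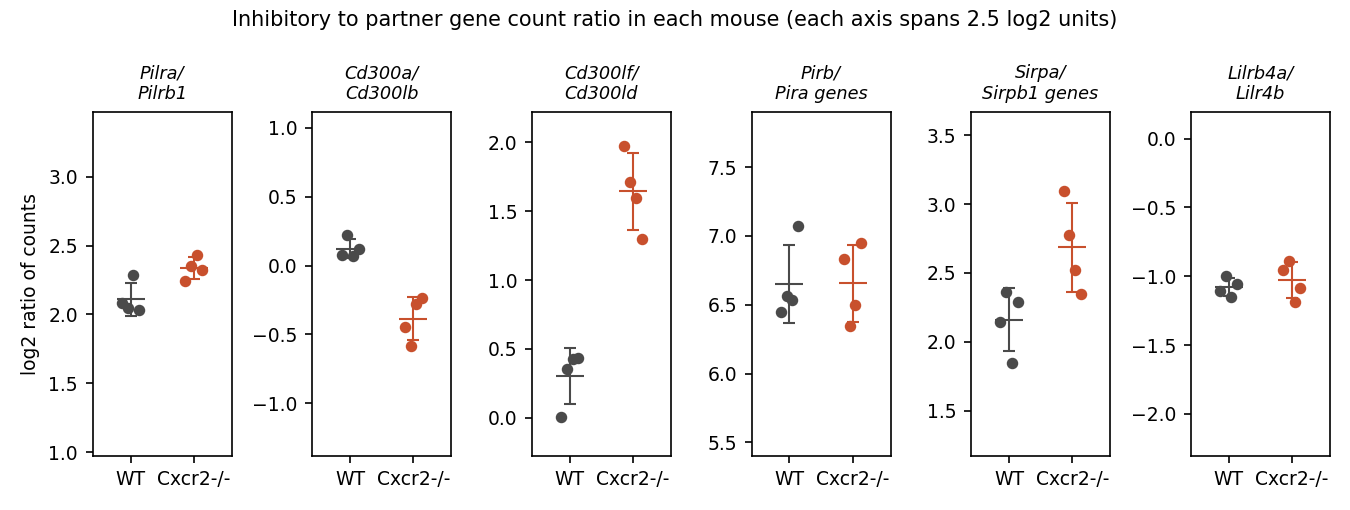
Log2 ratio of the counts of an inhibitory gene to its partner gene or genes in each WT (grey) and Cxcr2-/- (orange) mouse for 6 pairs, with mean and SD. Every vertical axis spans the same 2.5 log2 units around its own centre. Cd300a/Cd300lb is lower and Cd300lf/Cd300ld is higher in all 4 mutant mice, and the other 4 ratios overlap.

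Beyond the members, 24 protein-coding relatives of these families have an entry, and 20 of them could be tested. Of the 20, 12 were lower and 1 was higher with an adjusted p under 0.05 by edgeR's quasi-likelihood test, with a median log2 fold change of -0.69. The shares over all genes tested were 21% lower and 23.7% higher. The largest changes were those of Cd300c, Cd300ld2 and Cd300ld3 given above and of Cd300lg, higher by 1.54 on the log2 scale at only 0.174 to 1.52 CPM, with overlap. Cd22, an inhibitory receptor of B cells, was at 8.28 to 10.3 CPM in WT and 2.46 to 8.19 CPM in mutant mice and did not pass (edgeR adjusted p = 0.0570), and it is also in the B cell marker list.

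Genes of the ITAM side, adaptors and effectors of the activating members, showed small differences. Of 10 tested, 3 were lower and 1 was higher with an adjusted p under 0.05 (edgeR's quasi-likelihood test), and 0 reached 1.5-fold. By that adjusted p, 21% of all genes tested were lower and 23.7% higher. The kinase gene Syk was at 1235 to 1347 CPM in WT and 982 to 1150 CPM in Cxcr2-/- mice (log2 fold change -0.32, edgeR adjusted p = 0.0185). The adaptor SLP-76 (Lcp2) fell by 0.38 and the paracaspase Malt1 by 0.43 on the log2 scale. Fcer1g, the gamma chain that carries ITAM signals, was the gene that rose, from 281 to 388 CPM in WT to 424 to 503 CPM (log2 fold change 0.38, edgeR adjusted p = 0.0166). Tyrobp, which encodes DAP12, the adaptor of Cd300lb and Pilrb1, was at 706 to 1138 CPM and 761 to 956 CPM and did not pass (log2 fold change -0.17, edgeR adjusted p = 0.372), and neither did the phospholipase gene Plcg2 (0.24, edgeR adjusted p = 0.121).

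On the ITIM side, 2 of 8 genes were lower and 2 were higher by the same test, where 21% of all genes were lower and 23.7% higher. SHP-2 (Ptpn11) rose from 46.02 to 58.3 CPM in WT to 72.2 to 100.1 CPM (log2 fold change 0.66, edgeR adjusted p = 7.00e-04), and the adaptor Dok2 from 18.5 to 23.7 CPM to 41.0 to 54.1 CPM (1.12, edgeR adjusted p = 1.14e-05). SHIP1 (Inpp5d) fell by 0.41 and the kinase Csk, which restrains Src kinases, by 0.33 on the log2 scale (edgeR adjusted p = 0.00295 and 0.0386). SHP-1 (Ptpn6), far above SHP-2 in counts at 547 to 688 CPM in WT and 482 to 634 CPM in mutant mice, did not pass (log2 fold change -0.18, edgeR adjusted p = 0.245), and Dok3 was at 0.11 (edgeR adjusted p = 0.527). The Src family kinase genes Lyn and Fgr, with log2 fold changes of -0.14 and 0.01, did not pass (edgeR adjusted p = 0.205 and 0.958).

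Of 7 tested genes for ligands, 1 was higher and 0 were lower by the same test, and 4 passed when libraries were scaled by total counts. The main comparison had 23.7% of all genes higher and 21% lower. Cd47, the ligand of Sirpa, was at 420, 390, 384 and 405 CPM in WT and at 619, 688, 604 and 600.3 CPM in Cxcr2-/- mice, with a log2 fold change of 0.65 (standard error 0.09, edgeR adjusted p = 1.10e-04) and no overlap. The MHC class I genes H2-D1 and B2m, ligands of Pirb, did not pass (log2 fold changes -0.14 and -0.36, edgeR adjusted p = 0.623 and 0.0650), and Cxcr2-/- replicate 1 was high for H2-D1.

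Sialic acids are ligands of Siglece and form part of those of Pilra. Of 15 tested genes that make, transfer or remove them, 6 were higher and 3 were lower by edgeR's quasi-likelihood test. That test had 23.7% of all genes higher and 21% lower. St3gal6, a sialyltransferase of the alpha2,3 type, had the largest difference, from 218 to 299.9 CPM in WT to 31.9 to 66.1 CPM in Cxcr2-/- mice (log2 fold change -2.37, standard error 0.20, edgeR adjusted p = 2.19e-06). St3gal3 fell by 1.30 on the log2 scale from 5.97 to 7.14 CPM in WT, while St3gal2 rose by 0.84 and Cmah, the hydroxylase that turns Neu5Ac into Neu5Gc, by 1.22. Cmah was at 205 to 240 CPM in WT and 485 to 569 CPM in mutant mice (edgeR adjusted p = 1.12e-06). St3gal4 and St3gal1, with log2 fold changes of -0.15 and -0.09, did not pass.

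Of 8 other receptors with ITIM motifs that were tested, 5 were higher and 1 was lower with an adjusted p under 0.05 (edgeR's quasi-likelihood test), and their median log2 fold change was 0.55. Among all genes, 23.7% were higher and 21% lower. Ceacam1 was at 258 to 311 CPM in WT and 519 to 628 CPM in mutant mice (log2 fold change 1.06, edgeR adjusted p = 4.96e-06). Milr1 and Pecam1 were higher by 0.66 and 0.64, and Lair1, a collagen receptor, was lower by 0.77 on the log2 scale. The low-affinity Fc receptor Fcgr2b and Cd200r1 did not pass (edgeR adjusted p = 0.0681 and 0.427). Of 5 tested activating receptors of other families, Trem3 and Clec5a were higher by 0.42 and 0.40, and Trem1, a DAP12-coupled amplifier of inflammatory responses, was lower, from 1113 to 1346 CPM in WT to 301 to 461 CPM (log2 fold change -1.65, edgeR adjusted p = 2.80e-06). Nfam1 and Fcgr4 did not pass, with log2 fold changes of -0.21 and 0.19.

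**Figure D4:**
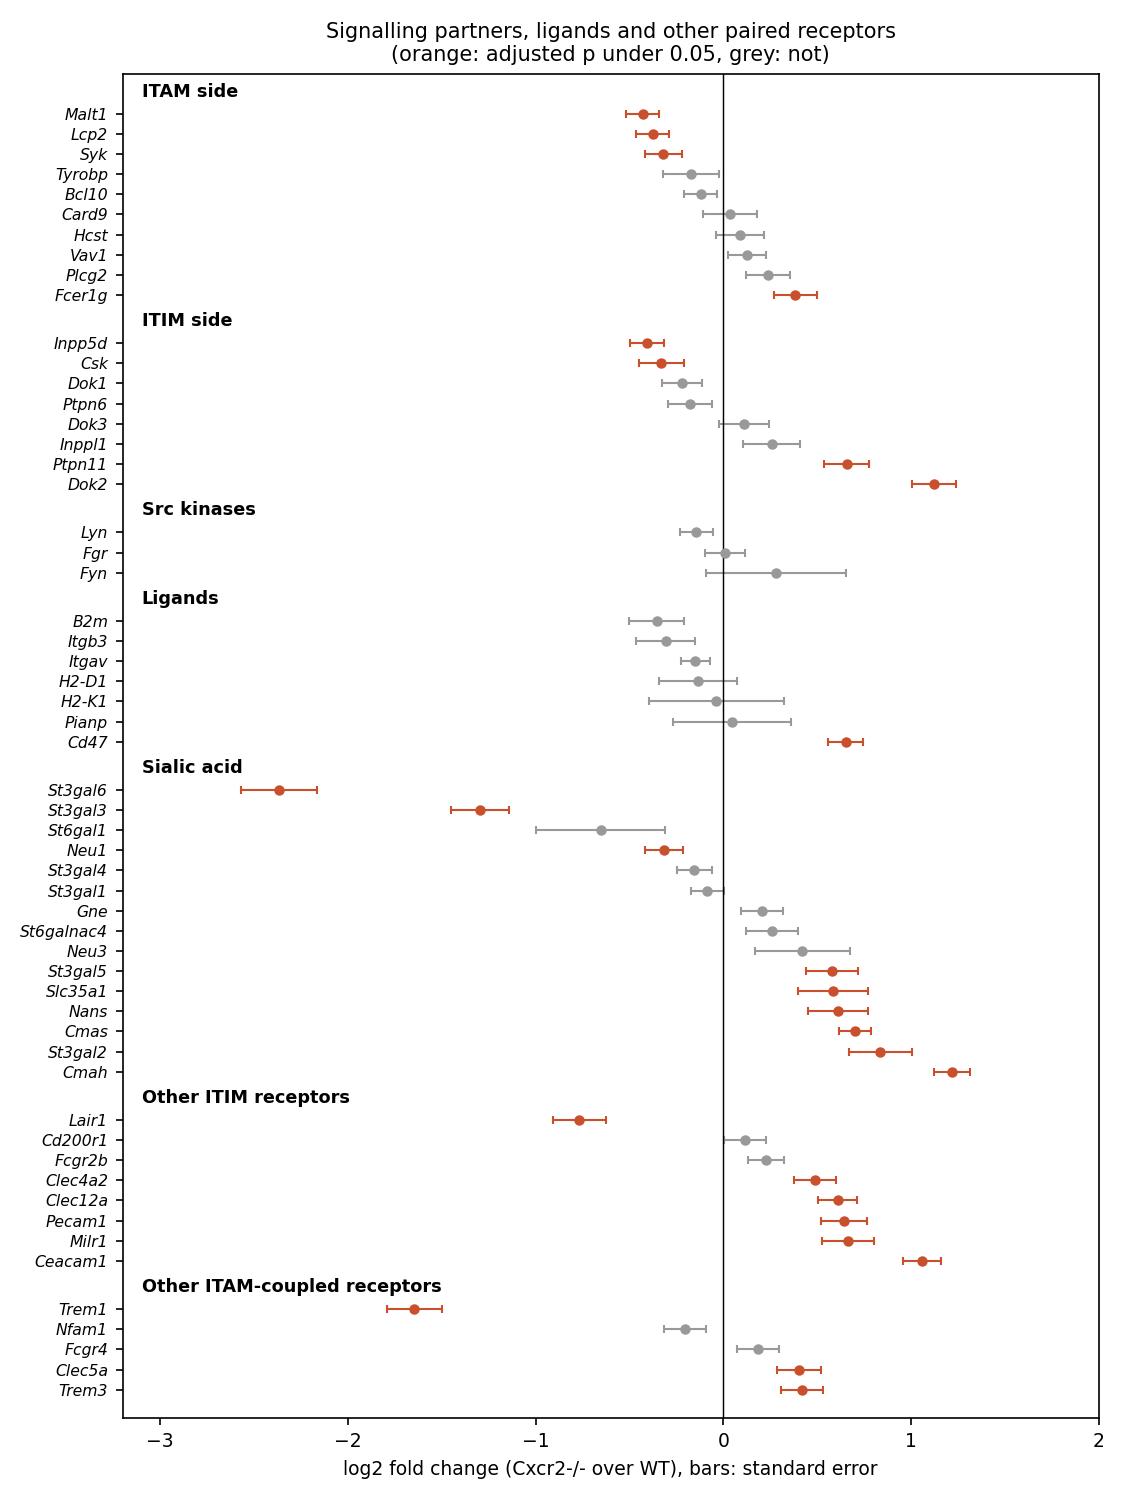
Log2 fold change (Cxcr2-/- over WT, bars give the standard error) of 56 tested genes in 7 lists of signalling partners, ligands, sialic acid genes and other receptors. Orange marks an adjusted p under 0.05. St3gal6 and Trem1 lie lowest, at -2.37 and -1.65, and Cmah highest, at 1.22.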

How the data were processed

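RNA was measured in sorted spleen neutrophils of 4 WT and 4 Cxcr2-/- mice, 1 library per mouse. Per the study's methods, trimmed reads were mapped with STAR on the mm10 build and HTSeq tallied them per gene; the authors deposited these whole-number counts without normalization. Versions and the strand setting are not given in the sources used here. Totals that HTSeq lists beside the genes were kept out of every test. The share that HTSeq assigned to no feature, which may include reads within introns, was 31.4% to 41.5% in WT and 26.7% to 31.9% in Cxcr2-/- libraries. Reads of FVB mice were aligned to the reference strain, and the effect on receptor genes that differ between strains was not tested.

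Groups and replicate numbers came from the sample labels. No replicate pair agreed within sampling noise (23.9 to 99.0 chi-square units per gene). Mice of the same number are different animals, and the correlation of their deviations ran from -0.26 to 0.16. The labels do not say whether a number marks a shared day or batch, and these correlations cannot exclude it. The mice were treated as unpaired. Identifiers were matched to GENCODE M21 (GRCm38), which has an entry for 52081 of them. Of these, 52044 carry a higher version number in the files, so the counting used a later annotation than the one that gives the positions here.

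Counts were compared in R 4.3.3 with edgeR 4.0.16 (quasi-likelihood test, TMM, filterByExpr, Benjamini-Hochberg adjustment over 16778 genes). A call needs an adjusted p under 0.05 and 1.5-fold. The standard errors given were derived as the absolute log2 fold change divided by the square root of the quasi-likelihood F statistic. DESeq2 1.42.0, the tool of the study, was an alternative, besides other scalings and filters, protein-coding genes only, a replicate block, a covariate for RNA of other cells and each library left out in turn. Leaving out Cxcr2-/- replicates 3 and 4 was added after the data were seen. Common variation between mice (biological coefficient of variation) was 0.202. Pair ratios used counts plus 0.5 and an exact two-sided permutation test in scipy 1.17.1. Scripts were tested on simulated data. Start-site windows came from RefSeq (8 of 10 members matched).

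The members, pairs and lists were chosen with earlier results of these data known. Named genes are the members, their pair partners, Cxcr2 and, per list, the 4 largest changes that passed and the 2 highest genes that did not. Sirpb1a to Sirpb1c, Lilr4b and Pira2 are pair partners. The other Cd300 genes of the cluster, Lilra6, Rab37, Cd33, Siglecf, Siglecg, Siglec1 and Mag were named after their values were seen. Shared stretches are runs of 100 bases of a gene's M21 transcripts found in transcripts of another gene. Some genes that fall under these lists are not reported here.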

Additional observations from a re-analysis of the deposited data

Results flagged for a closer look

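In 124 groups of 4 values (each listed gene and ratio in each genotype that was checked), 4 had an end value far from the other 3, where chance alone gives about 5% of groups. Cd300ld in Cxcr2-/- replicate 4 was at 221 CPM, with the other mutant mice at 185 to 190 CPM, and still below all WT mice. The ratio of Pirb to Pira2 counts in WT replicate 4 was 134, with the other WT mice at 87.3 to 94.4. H2-D1, an MHC class I gene, was at 4454 CPM in Cxcr2-/- replicate 1, with the other mutant mice at 2252 to 2316 CPM. H2-K1, named after its values were seen, was also highest there, at 646 CPM against 155 to 211 CPM. F830045P16Rik, a neighbour of Sirpa, was at 0.330 CPM in Cxcr2-/- replicate 3, with the other mutant mice at 0.0729 to 0.111 CPM.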

How the results depend on the processing

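The counts of members that passed (5) and that were called (4) stayed within 1.5 times under all 18 alternatives, and Cd300a, Cd300lb, Cd300ld and Lilrb4a passed in each (highest edgeR adjusted p 0.0204, for Lilrb4a). Cd300lf turned to -0.046 with upper-quartile scaling, -0.020 with total counts and -0.0024 with protein-coding genes only, and lay between -0.010 (without Cxcr2-/- replicate 1) and 0.11 with a library left out. Sirpa passed with the first 3 of these settings and Pilra with upper-quartile scaling and total counts. The members without overlap rose from 5 to 8 with total counts, and the pair ratios without overlap from 2 to 4 without Cxcr2-/- replicates 3 and 4. Upper-quartile scaling and total counts gave 38.0% and 40.7% higher calls over all genes, against 50%, and upper-quartile scaling moved the median of all genes to -0.11 (log2). The ligand genes that passed, 1 in the main comparison, were 4 with upper-quartile scaling, total counts or protein-coding genes only, 2 with DESeq2, no filter, a minimum of 10 counts or the covariate, 3 with the replicate block, and 1 to 5 with a library left out (5 without Cxcr2-/- replicate 1, 2 without WT replicate 2). Of the 3 Src kinase genes reported here 1 passed, in place of 0, with upper-quartile scaling, total counts or protein-coding genes only. The causes were not tested. With the replicate block 4988 genes were called, against 5256, and the labels do not say that the numbers pair the mice. A list with 1 gene past the threshold doubles with a single further gene, and 4 mice against 4 cannot give an exact permutation p under 0.0286.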

Other observations

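Protein-coding genes within 200 kb of a member, other than the receptor families themselves, numbered 71, of which 43 could be tested. Of the 43, 10 were lower and 8 were higher in Cxcr2-/- neutrophils with an adjusted p under 0.05 (edgeR quasi-likelihood F test, Benjamini-Hochberg adjusted), and their median log2 fold change was 0.01. These counts lie near the shares over all genes tested, 21% lower and 23.7% higher. The largest changes were those of Grin2c (-1.95 on the log2 scale), which lies beyond the Cd300lf end of the Cd300 cluster, Etfb (1.75), F830045P16Rik (-1.59) and Cyp3a13 (-1.0003), all at low levels of at most 9.75 CPM. Rps9 and Mboat7, the neighbours with the highest levels that did not pass, had log2 fold changes of 0.15 and 0.08.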
